A study of Mus musculus with 27 samples.

Results

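The genes described here are Setdb1, Trim28, Zfp809, Cbx1, Cbx3, Cbx5, Mphosph8 and Cers2. They were chosen by name, as methyltransferase, corepressor, DNA-binding and reader genes of silencing by Setdb1. Cers2 is included as the gene whose 3′ end overlaps that of Setdb1 by 44 bases. All 8 of 8 were found in the total RNA, siRNA and inhibitor experiments, among 19930, 21381 and 21536 genes with a value in every library, and all 8 were among the 9214, 10573 and 11309 genes tested.

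Setdb1 writes trimethylation of histone H3 lysine 9, and Trim28 is the corepressor that brings it to sites bound by KRAB zinc-finger proteins such as Zfp809. The HP1 proteins (Cbx1, Cbx3 and Cbx5 encode HP1β, HP1γ and HP1α) and Mphosph8, the chromodomain subunit of the HUSH complex, bind the mark.

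Bulk RNA of 1 recloned line of iMEFs (an immortalized fibroblast line from mouse embryos) with a conditional knockout of *Setdb1* was profiled in 27 libraries and 12 groups, with *Setdb1* deleted by Cre induced with 4-hydroxytamoxifen (4OHT). The total RNA experiment (9 libraries, rRNA-depleted) held untreated cells, cells on day 5 after the start of 4OHT and long-term KO cells kept for at least 2 weeks, with 3 libraries each. The siRNA experiment (8 libraries) held cells with a control siRNA (siCtrl) or an siRNA against Dnmt1 (siDnmt1), alone or after 4OHT: siCtrl, siDnmt1, 4OHT + siCtrl and 4OHT + siDnmt1, collected on day 6, with 2 libraries each. The inhibitor experiment (10 libraries) held Ctrl, the histone deacetylase inhibitor TSA (150 nM), the MEK inhibitor PD0325901 (1 µM), 4OHT day 6 and 4OHT + PD0325901, with the inhibitors given for 24 h and 2 libraries each. The labels spell the MEK inhibitor both PD0325901 and PD0325091, and no group without the Cre was given 4OHT, so effects of 4OHT itself and of the deletion were not separated. The labels do not say whether replicates were separate cultures, so the p-values below measure only the spread between these samples.

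In the siRNA experiment, the 2 libraries of 4OHT + siCtrl were less alike than the replicates of any other group. Values are FPKM, fragments per kilobase of transcript relative to the mapped fragments of the library. Over 9117 genes these 2 libraries correlated at r = 0.947, against 0.977 to 0.993 in the 17 other replicate pairs (across genes, which are not independent replicates). The median r of replicate 2 with the other siRNA libraries was 0.939, against 0.936 and 0.934 for siCtrl replicates 1 and 2. Replicate 2 of 4OHT + siCtrl was kept. Results without it are given for the members and for all genes, but not for the lists of partner and related genes. The file of PD0325901 replicate 2 carries an internal title of a 4OHT + PD0325901 library, whereas its label in the database says PD0325901. The label was followed: its value of Trim24, 6.45 FPKM, lay beside the 6.69 of replicate 1 and outside the 14.3 and 17.3 of 4OHT + PD0325901.

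Of 11 fibroblast marker genes, 8 to 10 had a value in each library and all of these were at 1 FPKM or more; Pdgfra had no value. Their summed level was 2424, 2442 and 2431 FPKM in the untreated libraries, 1658, 1818 and 1755 on 4OHT day 5, and 2994, 1900.03 and 2322 in long-term KO. The siRNA libraries had 5077 and 5183 in siCtrl, 4103 and 4284 in siDnmt1, 2415 and 3723 in 4OHT + siCtrl, and 2456 and 2488 in 4OHT + siDnmt1. The inhibitor libraries had 4065 and 4319 in Ctrl, 3404 and 3609 in TSA, 5098 and 5649 in PD0325901, 3038 and 2948 in 4OHT day 6, and 3002 and 3446 in 4OHT + PD0325901. Vim was the most abundant of them in most libraries, Col1a1 or S100a4 in the others. The libraries of 4OHT day 5 and day 6 were below their controls in all 3 experiments, on day 5 with 9 genes summed against 10. Replicate 1 of TSA and of 4OHT + PD0325901 also had 9 genes summed, against 10 in the other inhibitor libraries. Long-term KO had 10, 8 and 9 genes summed, so its sums are not of the same genes.

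Of 14 markers of other cell types, 13 had a value in 7 of the 9 total RNA libraries and summed to 1.52 to 2.31 FPKM. Cd68 had a value only in the other 2, at 2.73 and 3.90, where the sums were 4.48 and 6.26. All 14 had a value elsewhere, with sums of 4.92 to 16.1 in the inhibitor libraries other than TSA. In the siRNA libraries the sums were 5.49 and 5.43 in siCtrl, 10.8 and 9.45 in siDnmt1, 6.26 and 12.9 in 4OHT + siCtrl, and 14.7 and 14.4 in 4OHT + siDnmt1. They were thus lowest in siCtrl and highest in 4OHT + siDnmt1, as were Zfp809 and Cers2 below. Emr1 was at 0 wherever it had a value, and Ptprc, Krt5 and Cdh5 did not exceed 0.131, 0.0615 and 0.171. Csf1r, Pecam1, Pou5f1, Zfp42 and Ddx4 did not exceed 0.533, 0.295, 0.620, 0.148 and 0.515. Epcam, however, reached 29.2, Cdh1 2.60 and Nanog 2.18 FPKM in the inhibitor experiment, and Dazl 3.15 in the siRNA experiment. In the TSA libraries the sum was 100.1 and 95.4 FPKM against 7.26 and 7.20 in Ctrl, with Cd68 the most abundant at 66.9 and 60.5. The part of these markers in the results below was not tested.

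The promoter windows of 5 members are shown because the letters near a start site are what the members can be compared by outside the expression values. Each window is the 200 bases upstream of the start of the gene in the deposited tables (mm9, NCBIM37), 5′ to 3′ on the strand of the gene, read from the NCBIM37 genome with strands and exons from GENCODE M1: Setdb1 chr3:95161125-95161324 (minus), Trim28 chr7:13609301-13609500 (plus), Zfp809 chr9:22029947-22030146 (plus), Cbx5 chr15:103070248-103070447 (minus) and Mphosph8 chr14:57286885-57287084 (plus). Capitals mark CCGGAAG (the ETS site), CCAAT and GGGCGG (the GC box) on either strand, and no 2 of the marked sites overlap. The windows of Cbx1, Cbx3 and Cers2 hold 9, 102 and 200 bases of annotated exons and are not printed.
Setdb1: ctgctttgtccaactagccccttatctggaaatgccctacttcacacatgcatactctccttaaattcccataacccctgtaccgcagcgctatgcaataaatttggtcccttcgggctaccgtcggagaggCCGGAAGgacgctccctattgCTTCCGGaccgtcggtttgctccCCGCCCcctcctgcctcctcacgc
Trim28: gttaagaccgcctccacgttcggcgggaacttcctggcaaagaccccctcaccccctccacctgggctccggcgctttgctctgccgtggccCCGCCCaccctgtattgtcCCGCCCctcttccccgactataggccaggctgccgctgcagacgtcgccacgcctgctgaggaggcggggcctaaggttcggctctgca
Zfp809: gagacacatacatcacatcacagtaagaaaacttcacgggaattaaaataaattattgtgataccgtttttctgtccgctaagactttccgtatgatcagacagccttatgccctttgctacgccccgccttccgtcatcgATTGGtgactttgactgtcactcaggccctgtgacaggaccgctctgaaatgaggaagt
Cbx5: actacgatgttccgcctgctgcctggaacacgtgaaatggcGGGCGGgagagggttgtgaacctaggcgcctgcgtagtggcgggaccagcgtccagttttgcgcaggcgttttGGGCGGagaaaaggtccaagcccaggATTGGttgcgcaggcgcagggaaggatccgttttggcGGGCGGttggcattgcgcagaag
Mphosph8: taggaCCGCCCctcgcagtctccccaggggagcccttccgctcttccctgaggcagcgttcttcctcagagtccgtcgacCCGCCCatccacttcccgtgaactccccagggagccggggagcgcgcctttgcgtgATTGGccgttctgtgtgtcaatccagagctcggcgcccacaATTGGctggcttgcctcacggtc
Over 18477 promoters, 8.81% held CCGGAAG, 31.4% CCAAT and 44.0% GGGCGG. Setdb1 held 2 CCGGAAG sites, in opposite orientations, and 1 GC box. GGGCGG was found in 7 of the 8 members, with 3 sites in Cbx5, 2 each in Trim28, Mphosph8 and Cers2, and 1 each in Cbx1 and Cbx3. CCAAT was found once in Zfp809 and in Cbx5 and 2 times in Mphosph8. The interferon response element, in 2.38% of promoters, was found in 0 members. The windows held 9 (Zfp809) to 27 (Cbx3) CG pairs, against a median of 9 over all promoters. A match of letters is a description and does not show that a protein binds there.

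At 4OHT day 5 against untreated cells, the linear model of limma on log2 FPKM called 3 of 8 members, that is, gave them an adjusted p under 0.05, with 2 higher and 1 lower, where 35.5% of all genes tested were called (18.2% higher, 17.3% lower). The median log2 fold change was −0.11 over the members and 0.00 over all genes. In long-term KO against untreated cells 3 of 8 members were called, 2 higher and 1 lower, beside 65.9% of all genes (37% higher, 28.9% lower), with medians of 0.07 and 0.07. Between long-term KO and 4OHT day 5, 2 of 8 members were called, both higher in long-term KO, beside 64.4% of all genes (34.9% higher, 29.5% lower), with medians of 0.02 and 0.04. Any 2 of these comparisons share a group, so their counts are not independent. Quantile normalization turned all 3 splits, to 1502 higher and 1752 lower from 1674 and 1596, to 2985 and 3009 from 3409 and 2664, and to 2963 and 3038 from 3218 and 2717; median-ratio scaling turned the first (1673 and 1733) and the third (2983 and 3017). As the RNA was measured in bulk, fewer cells with a transcript and less of it per cell cannot be told apart. With 3 libraries against 3, the smallest p of an exact permutation test is 0.1, and with 2 against 2 it is 0.333, so each call rests on the spread that limma borrows from all genes.

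In the siRNA experiment, siDnmt1 against siCtrl had 1 of 8 members called, higher, beside 8.08% of all genes (3.11% higher, 4.97% lower), with medians of −0.11 and −0.09. For 4OHT + siCtrl against siCtrl the count was 3 of 8, 2 higher and 1 lower, beside 13.8% of all genes (7.24% higher, 6.51% lower), with medians of 0.04 and 0.08. Against 4OHT + siCtrl, 4OHT + siDnmt1 had 0 of 8 members called by limma, beside 2.05% of all genes (1.13% higher, 0.927% lower) and 2071 genes at an unadjusted p under 0.05, with medians of −0.07 and −0.02. Against siDnmt1 it had 2 of 8 members called, 1 higher and 1 lower, beside 13.9% of all genes (9.23% higher, 4.62% lower), with medians of 0.19 and 0.14. The interaction of 4OHT and siDnmt1 was called by limma in 0 of 8 members and 0.199% of all genes, with 1061 genes at an unadjusted p under 0.05.

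Without replicate 2 of 4OHT + siCtrl, 10586 genes were tested and the shares called were 23.2%, 28%, 4.98% and 33.6% in these 4 comparisons and 0.86% for the interaction. The members called were then 2, 5, 1 and 4 of 8. The lone 4OHT + siCtrl library is assumed in that fit to vary like the libraries of the other groups. With all libraries, median-ratio scaling split the called genes otherwise: 395 higher and 347 lower against 329 and 525 for siDnmt1, 573 and 851 against 766 and 688 for 4OHT + siCtrl, and 462 and 740 against 976 and 489 for 4OHT + siDnmt1 over siDnmt1, where it moved the median of all genes by −0.136. Quantile normalization gave 481 and 726 in the last of these, a shift of the median by −0.145, and shifted the interaction by −0.100. It also gave 545 and 680 for 4OHT + siCtrl, and 83 and 91 against 119 and 98 for 4OHT + siDnmt1 over 4OHT + siCtrl.

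In the inhibitor experiment, 4OHT day 6 against Ctrl had 2 of 8 members called, both higher, beside 25% of all genes (12.3% higher, 12.7% lower), with medians of −0.04 and 0.00. PD0325901 against Ctrl had 1 of 8, lower, beside 13.7% of all genes (5.93% higher, 7.77% lower), with medians of −0.00 and −0.07. The largest count was that of TSA against Ctrl, 5 of 8, with 1 higher and 4 lower, beside 55.9% of all genes (31.5% higher, 24.3% lower). There the median of the members was −0.78 and that of all genes 0.10, in the 2 libraries in which the markers of other cell types summed to 100.1 and 95.4 FPKM. For 4OHT + PD0325901, limma called 0 of 8 members against 4OHT day 6, beside 6.94% of all genes (4.31% higher, 2.64% lower) and 2555 at an unadjusted p under 0.05, with medians of −0.03 and 0.04. Against PD0325901 it called 0 of 8, beside 8.16% of all genes (5.52% higher, 2.64% lower) and 2893 at an unadjusted p under 0.05, with medians of 0.02 and 0.09. The interaction of 4OHT and PD0325901 was called by limma in 0 of 8 members and 0.743% of all genes, with 1798 at an unadjusted p under 0.05.

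Scaling moved some of these splits as well. For PD0325901 the 671 higher and 879 lower turned to 778 and 720 with median-ratio scaling and to 796 and 743 with quantile normalization, and for TSA the 3565 and 2752 turned to 3368 and 3430 with the latter. Quantile normalization gave 388 genes higher and 399 lower against 487 and 298 for 4OHT + PD0325901 over 4OHT day 6, and 390 and 433 against 624 and 299 over PD0325901, where median-ratio scaling gave 440 and 418. Quantile normalization shifted the median of all genes by −0.107 for TSA, by −0.1198 for 4OHT + PD0325901 over PD0325901 and by −0.119 for the interaction. The interaction split 60 higher and 24 lower in the deposited scale and 34 and 25 after median-ratio scaling. The comparisons with Ctrl share its 2 libraries, and their values are therefore set side by side only.

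**Figure D1:**
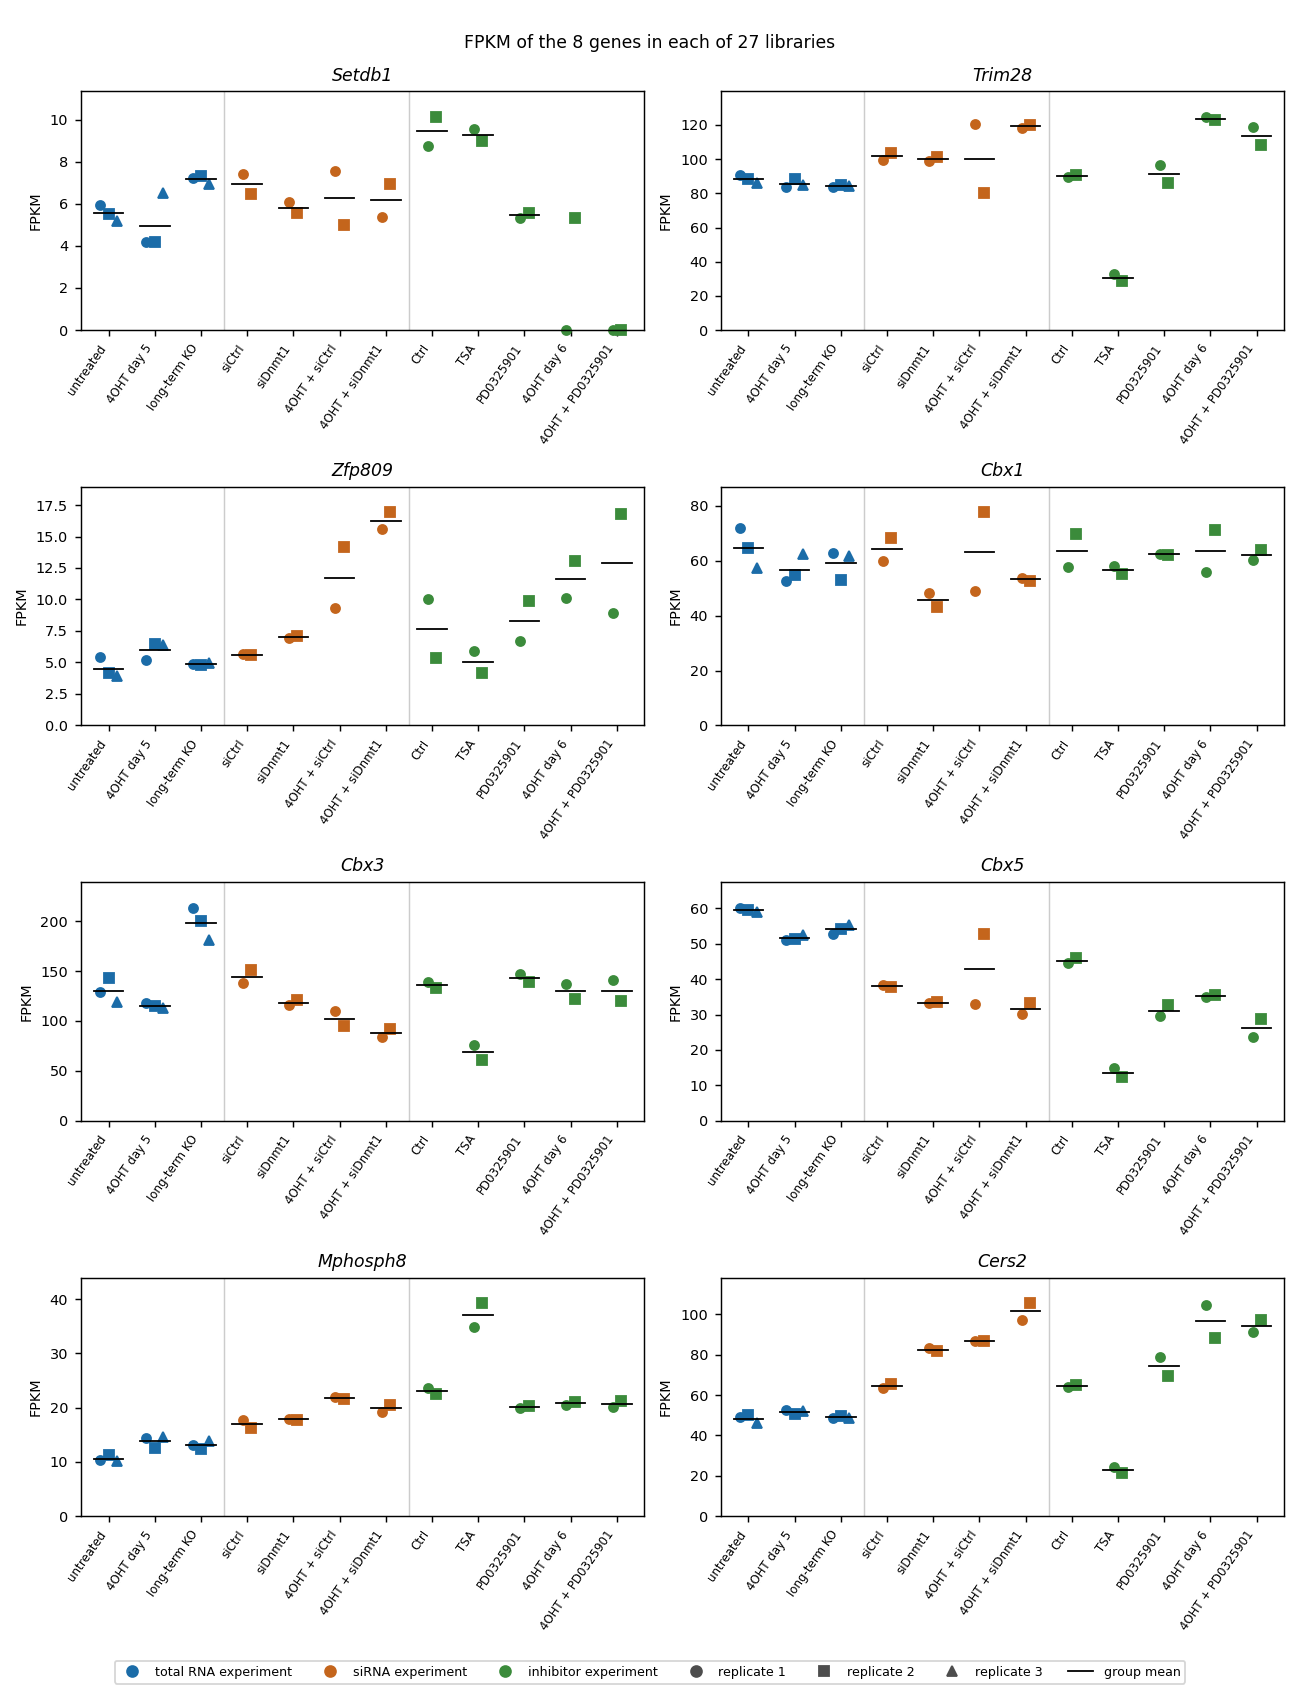
FPKM of each of the 8 members (vertical axis, 1 panel per gene) in each of the 27 libraries by group (horizontal axis). Points are libraries, with the marker shape giving the replicate number, bars are group means and colours are the 3 experiments; Setdb1 is listed at 0 in 3 libraries, and Trim28, Cbx3, Cbx5 and Cers2 are lowest in TSA within the inhibitor experiment.

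The FPKM of Setdb1, the methyltransferase whose gene is deleted by the Cre, was 5.95, 5.53 and 5.16 in untreated cells, 4.16, 4.20 and 6.52 on 4OHT day 5, and 7.24, 7.32 and 6.96 in long-term KO. The long-term KO libraries were the highest, above all 6 others, and the other two groups overlapped because of replicate 3 of 4OHT day 5. Between long-term KO and 4OHT day 5 Setdb1 rose by a log2 fold change of 0.56 (limma, standard error 0.16, adjusted p = 0.0182, 3 of 3 libraries above all of 4OHT day 5). Without 4OHT day 5 replicate 1 or replicate 2 this was 0.45 in both cases and was not called (adjusted p = 0.0600 and 0.0608). The difference of −0.19 between 4OHT day 5 and untreated cells was not called (limma, adjusted p = 0.413), which does not show that there was none. Without replicate 3 of 4OHT day 5 it was −0.40 and called (standard error 0.06, adjusted p = 0.00489). Long-term KO stood 0.37 above untreated cells, which was not called with all groups in the fit (limma, adjusted p = 0.0819) and was called when only those 2 groups were fitted (adjusted p = 0.00325). The order was thus long-term KO, untreated and 4OHT day 5, with the last 2 not apart beyond the spread. As FPKM are summed over a whole gene and single deleted exons are not seen in them, these values do not measure how complete the deletion was.

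With the siRNAs, the FPKM of Setdb1 was 7.40 and 6.48 in siCtrl, 6.08 and 5.54 in siDnmt1, 7.58 and 5.00 in 4OHT + siCtrl, and 5.40 and 6.94 in 4OHT + siDnmt1. Only siCtrl and siDnmt1 did not overlap, and Setdb1 was called in 0 of these 4 comparisons. The inhibitor libraries read 8.76 and 10.1 in Ctrl, 9.56 and 9.001 in TSA, 5.34 and 5.56 in PD0325901, 0 and 5.30 in 4OHT day 6, and 0 and 0 in 4OHT + PD0325901. Ctrl and TSA were high and overlapped, and PD0325901 lay below both. An exact 0 in these tables can be a failed estimate: of 5839 genes with a median of at least 10 FPKM in this experiment, 19 and 16 were listed at 0 in the 4OHT day 6 libraries, 10 and 13 in 4OHT + PD0325901, and 10 to 29 over all 10 libraries. For this reason no mean and no fold change of Setdb1 is given that takes a listed 0 as a value.

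Because those zeros widen the spread of Setdb1 in the fit, its difference of −0.78 between PD0325901 and Ctrl was not called (limma, standard error 1.49, adjusted p = 0.781). With a listed 0 taken as missing where the other library of its group was above 1 FPKM, the same −0.78 was called (standard error 0.18, adjusted p = 0.0309, both libraries below both of Ctrl). In that fit the 1 remaining 4OHT day 6 library stood −0.82 from Ctrl (adjusted p = 0.0351), under the assumption that a lone library varies like those of the other groups. TSA differed from Ctrl by −0.02, which was not called.

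Setdb1 (chr3:95127447-95161124, minus strand) and Cers2 (chr3:95119174-95127490, plus strand) run toward each other and share their last 44 bases, so reads there can be counted for either gene. Cers2 encodes a ceramide synthase and was called more often than Setdb1. Its FPKM was 49.0, 49.96 and 46.1 in untreated cells, 52.4, 50.7 and 52.2 on 4OHT day 5, and 48.8, 49.4 and 48.6 in long-term KO. The 4OHT day 5 libraries were the highest by a narrow margin, and the 0.10 over untreated cells was not called (limma, adjusted p = 0.0661). It was called without untreated replicate 2 (0.12, adjusted p = 0.0490) and after quantile normalization (0.14, adjusted p = 0.0160). The order was 4OHT day 5, long-term KO and untreated, of which the last 2 overlapped. Long-term KO was called below 4OHT day 5 only after median-ratio scaling (−0.12, adjusted p = 0.00868) or quantile normalization (−0.11, 0.0227) and with only the compared groups (−0.08, 0.0459).

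Among the siRNA libraries Cers2 was at 63.5 and 65.3 FPKM in siCtrl, 83.4 and 81.8 in siDnmt1, 86.9 and 86.7 in 4OHT + siCtrl, and 97.5 and 106 in 4OHT + siDnmt1. The 4 groups did not overlap, with siCtrl lowest and 4OHT + siDnmt1 highest. Cers2 rose with siDnmt1 by 0.36 (limma, standard error 0.08, adjusted p = 0.0451, both libraries above both of siCtrl) and with 4OHT + siCtrl by 0.43 (limma, standard error 0.08, adjusted p = 0.0214, both libraries above). The first call was lost without any 1 of the 4 libraries compared: adjusted p was 0.258 and 0.220 without siCtrl replicates 1 and 2, and 0.289 and 0.271 without siDnmt1 replicates 1 and 2. It was also lost with the filter at 5 FPKM (0.0525), with a replicate block (0.0778) and without a variance trend (0.0883). The second was lost without siCtrl replicate 1 (adjusted p = 0.134) or replicate 2 (adjusted p = 0.134), and with only the compared groups (0.111). The 0.30 of 4OHT + siDnmt1 over siDnmt1 was not called (limma, adjusted p = 0.0546), and was called without 4OHT + siCtrl replicate 2 (adjusted p = 0.0227). With all libraries kept it was called with no filter (0.0427), with only the compared groups (0.0484) and with a listed 0 as missing (0.0481).

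Among the inhibitor libraries the FPKM of Cers2 was 64.2 and 65.2 in Ctrl, 24.6 and 21.2 in TSA, 78.9 and 69.6 in PD0325901, 105 and 88.4 in 4OHT day 6, and 91.2 and 97.4 in 4OHT + PD0325901. TSA was far below and both 4OHT groups above all others, the 2 overlapping each other. Cers2 fell by 1.497 with TSA (limma, standard error 0.12, adjusted p = 5.41e-05) and rose by 0.57 on 4OHT day 6 (limma, standard error 0.12, adjusted p = 0.0143), in both libraries each. The rise was not called without Ctrl replicate 1 (adjusted p = 0.0875), Ctrl replicate 2 (0.0819) or 4OHT day 6 replicate 1 (0.0687). The next groups in order, PD0325901 and Ctrl, were not called apart. Summed with Setdb1, the pair took the direction of Cers2: the sum differed by −0.01 between long-term KO and 4OHT day 5, by 0.38 for 4OHT + siCtrl and by 0.42 for 4OHT day 6, where Setdb1 alone leaned the other way.

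Within 100 kb of Setdb1 the deposited tables place 12 genes: Gm16740, Mllt11, Cdc42se1, Gm128, Bnipl, Prune, Fam63a, Anxa9, Cers2, 4930558C23Rik, Gm4349 and Arnt. Gm16740 was listed at 0 in every library with a value, Anxa9 in 9 of 9, 8 of 8 and 9 of 10, and Gm128, Bnipl, Gm4349 and 4930558C23Rik did not exceed 1.35 FPKM. Mllt11 was listed at 0 in 7 siRNA and 6 inhibitor libraries. In the inhibitor experiment Prune read 11.1 and 9.37 in Ctrl, 13.9 and 13.9 in TSA, 12.7 and 12.2 in PD0325901, 8.12 and 7.80 in 4OHT day 6, and 12.8 and 13.5 in 4OHT + PD0325901. Arnt read 23.9 and 23.5, 22.2 and 22.5, 19.4 and 23.1, 15.3 and 21.4, and 19.4 and 27.1 in the same groups. Neither was at 0 in any library, and neither followed Setdb1 to its zeros in 4OHT + PD0325901. In the total RNA experiment Prune was at 13.4, 12.9 and 12.9 FPKM in long-term KO against 5.80, 6.35 and 6.42 in untreated cells, Arnt at 12.9, 13.8 and 13.5 against 8.88, 8.84 and 8.47, and Fam63a at 8.97, 9.17 and 9.24 against 7.83, 7.34 and 7.47. Cdc42se1 was at 17.6 and 17.7, with no value in 1 library, against 8.19, 8.30055 and 7.85. None of these 4 overlapped between the 2 groups, nor did Setdb1, while Cers2 did. In that comparison 65.9% of all genes tested were called, and the share of all genes without overlap is not given here.

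**Figure D2:**
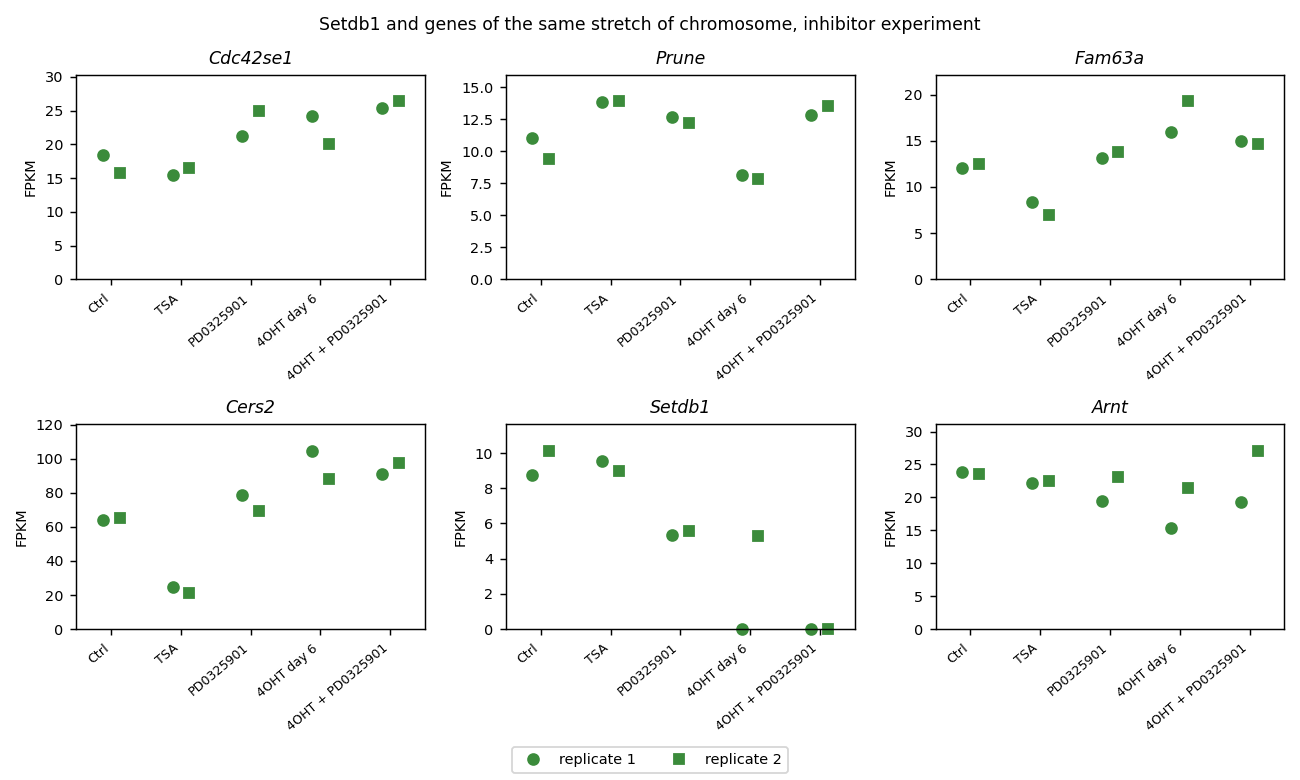
FPKM (vertical axis) of Setdb1 and of Cdc42se1, Prune, Fam63a, Cers2 and Arnt, genes within 100 kb of it, in the 10 inhibitor libraries by group (horizontal axis). Points are libraries, with the marker shape giving the replicate number. Setdb1 is the only 1 of the 6 listed at 0, in 1 library of 4OHT day 6 and both of 4OHT + PD0325901. Cers2 runs from 21.2 to 105 FPKM.

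The corepressor gene Trim28 was the steadiest member in the total RNA experiment, at 90.7, 88.6 and 86.3 FPKM in untreated cells, 83.6, 88.3 and 85.0 on 4OHT day 5, and 83.5, 85.0 and 84.0 in long-term KO. Untreated cells were highest and long-term KO lowest, the middle group overlapped both, and 0 of these 3 comparisons was called. After median-ratio scaling Trim28 was called lower in long-term KO by −0.12 against untreated cells (adjusted p = 0.00318) and by −0.07 against 4OHT day 5 (adjusted p = 0.0456). The siRNA libraries had it at 99.3 and 104 in siCtrl, 99.0 and 101 in siDnmt1, 121 and 79.9 in 4OHT + siCtrl, and 118 and 120.1 in 4OHT + siDnmt1. The 4OHT + siDnmt1 libraries were above both groups without 4OHT, and the 2 libraries of 4OHT + siCtrl lay on either side of all others, so Trim28 was not called in that experiment.

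Which of those 2 libraries is kept decides the direction of Trim28. Without 4OHT + siCtrl replicate 2 it was called 0.25 above siCtrl (limma, adjusted p = 0.0462), and without replicate 1 it was called −0.34 from siCtrl (limma, adjusted p = 0.0215). Without replicate 2, 4OHT + siDnmt1 was also called 0.25 above siDnmt1 (adjusted p = 0.0233), as it was with only the compared groups (0.0431). Without replicate 1 it was called 0.58 above 4OHT + siCtrl (adjusted p = 0.00696), with an interaction of 0.60 (adjusted p = 0.02503). Each of these fits takes the lone library to vary like those of the other groups. The deposited intervals of Trim28 run from 0 to 12174 FPKM in siCtrl replicate 2, 11583 in 4OHT + siCtrl replicate 2 and 12912 in 4OHT + siDnmt1 replicate 2, so these 3 values are poorly determined.

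The inhibitor libraries gave Trim28 at 89.5 and 90.8 FPKM in Ctrl, 32.9 and 28.4 in TSA, 96.7 and 86.2 in PD0325901, 125 and 123 in 4OHT day 6, and 119 and 108 in 4OHT + PD0325901. TSA stood far below, both 4OHT groups were above all others without overlap, and PD0325901 spanned Ctrl. Trim28 fell by 1.56 with TSA (limma, standard error 0.11, adjusted p = 2.69e-05, both libraries below both of Ctrl), a fold of 0.340. It rose by 0.46 on 4OHT day 6 (limma, standard error 0.11, adjusted p = 0.0195, both libraries above), which was not called without Ctrl replicate 1 (adjusted p = 0.111), Ctrl replicate 2 (0.103), 4OHT day 6 replicate 1 (0.0728) or replicate 2 (0.0678). Between 4OHT + PD0325901 and PD0325901 the difference of 0.31 was not called (limma, adjusted p = 0.115). Over the 12 group means, each set on the mean of its experiment, Trim28 and Cers2 were the members most alike (r = 0.972), and among 8549 genes Zxdb (r = 0.997), Opa3 (r = 0.991) and Polr2m (r = 0.988) were closest to Trim28. These 3 genes were chosen after their values were seen, the 12 means share libraries within experiments and are dominated by TSA, and the r are descriptions without a test.

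Zfp809, a KRAB zinc-finger gene whose product binds retroviral primer binding sites, was at 5.45, 4.19 and 3.91 FPKM in untreated cells, 5.17, 6.45 and 6.35 on 4OHT day 5, and 4.85, 4.83 and 4.96 in long-term KO. The 4OHT day 5 libraries were the highest except for replicate 1, which lay below untreated replicate 1. Zfp809 rose by 0.41 on day 5 (limma, standard error 0.13, adjusted p = 0.0470, 2 of 3 libraries above all of untreated). The call was lost without untreated replicate 2 (adjusted p = 0.127) or 3 (0.130), and without 4OHT day 5 replicate 2 (0.129) or 3 (0.129). It was also lost with no filter (0.108), after quantile normalization (0.0635), with only the compared groups (0.103) and with a replicate block (0.0973). Long-term KO lay between them, below all of 4OHT day 5 and within untreated, and was not called against either. It was called lower than 4OHT day 5 without replicate 1 of that group (−0.39, adjusted p = 0.0410), after quantile normalization (−0.39, adjusted p = 0.0259) and with only the compared groups (−0.28, adjusted p = 0.0417).

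Across the siRNA groups Zfp809 was at 5.68 and 5.57 FPKM in siCtrl, 6.94 and 7.14 in siDnmt1, 9.30 and 14.1 in 4OHT + siCtrl, and 15.6 and 16.9 in 4OHT + siDnmt1. The groups ascended in that order without overlap, and both groups given 4OHT were above both groups without it. Zfp809 rose by 1.02 with 4OHT + siCtrl (limma, standard error 0.20, adjusted p = 0.0264), a fold of 2.02, and by 1.19 with 4OHT + siDnmt1 over siDnmt1 (limma, standard error 0.20, adjusted p = 0.0219), a fold of 2.29, in both libraries each. These were the largest rises of a member. The first was not called without siCtrl replicate 1 (adjusted p = 0.130) or 2 (0.161), and the second not without siDnmt1 replicate 1 (0.143) or 2 (0.154) or 4OHT + siDnmt1 replicate 1 (0.0816) or 2 (0.0742). With no filter neither was called (0.0798 and 0.0549), and with only the compared groups the first was not (0.148). Neighbours in the order, siDnmt1 over siCtrl and 4OHT + siDnmt1 over 4OHT + siCtrl, were not called apart; without 4OHT + siCtrl replicate 2 the latter was called at 0.80 (adjusted p = 0.0272).

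Across the inhibitor groups Zfp809 was at 10.0 and 5.33 FPKM in Ctrl, 5.89 and 4.13 in TSA, 6.70 and 9.85 in PD0325901, 10.1 and 13.1 in 4OHT day 6, and 8.94 and 16.8 in 4OHT + PD0325901. The 2 libraries of Ctrl were as far apart as the groups, 4OHT day 6 was above both of them by a narrow margin, and TSA was the lowest group by its mean. The differences of 0.65 on 4OHT day 6 (limma, adjusted p = 0.286) and 0.59 between 4OHT + PD0325901 and PD0325901 were not called, which does not show that there was none. The deposited interval of TSA replicate 2, 1.096 to 7.173 FPKM, is as wide as 7.41 fragments would give, against 143 in replicate 1 at much the same depth. Closest to Zfp809 over the 12 group means were Anxa7 (r = 0.981), Armc8 (r = 0.965) and Ppcs (r = 0.963), chosen after their values were seen. Anxa7 was at 40.3 and 43.8 FPKM in siCtrl and 81.5 and 76.4 in 4OHT + siDnmt1.

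**Figure D3:**
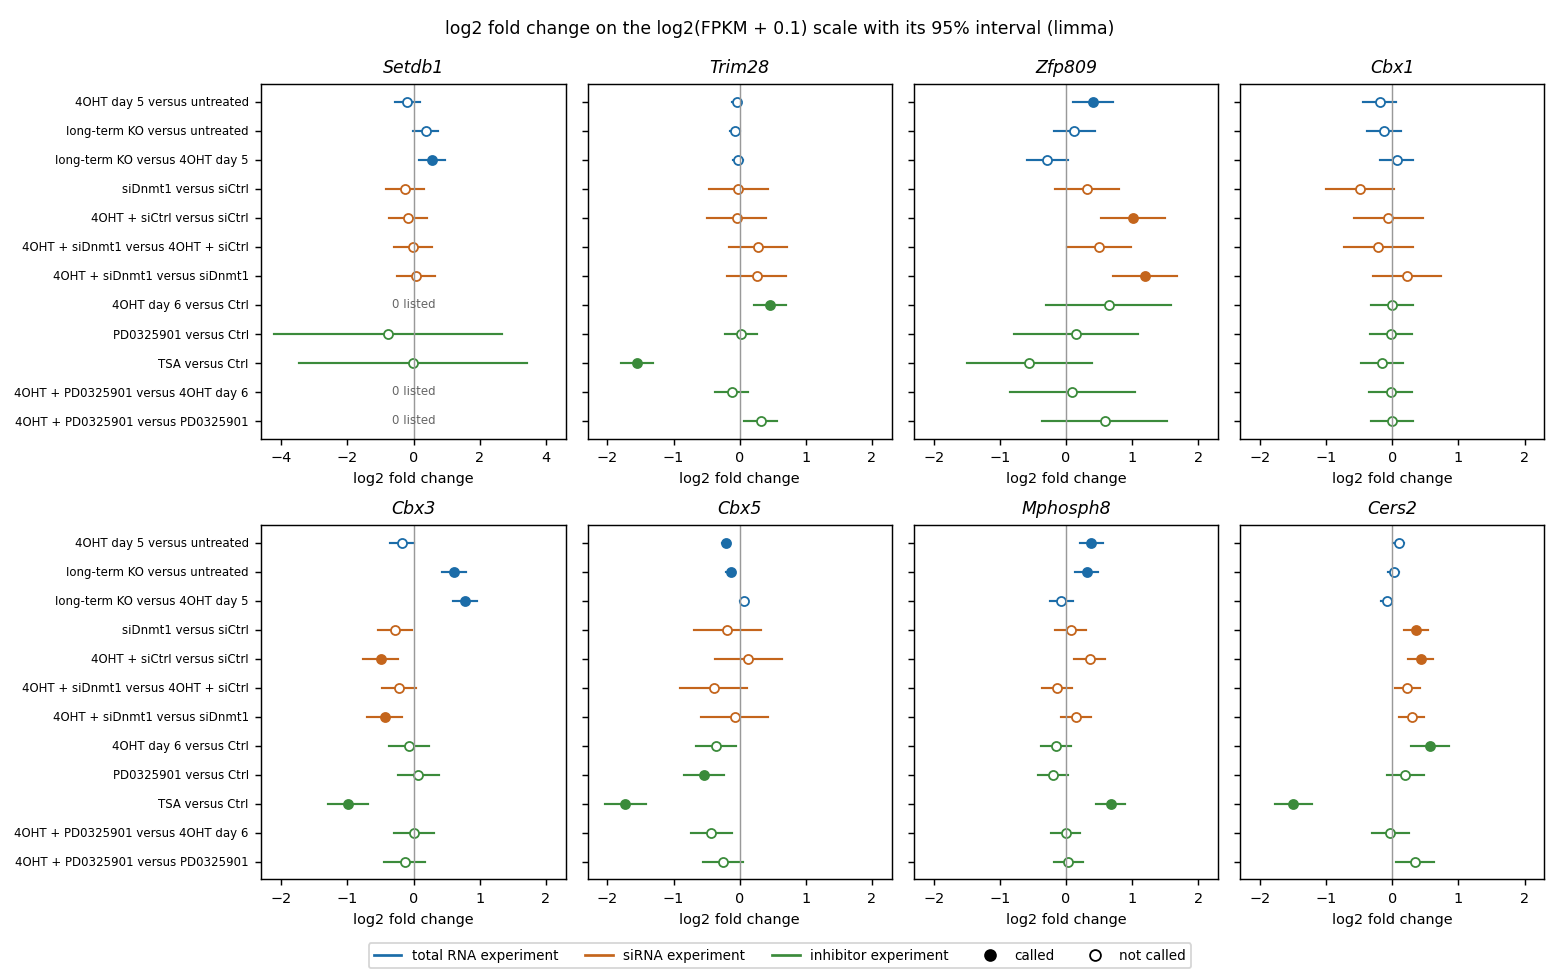
Log2 fold change (horizontal axis) with its 95% interval from limma for each of the 8 members in each comparison. Filled points were called at an adjusted p under 0.05, and comparisons with a group of Setdb1 listed at 0 are marked instead of drawn; the called values run from −1.73 (Cbx5 with TSA) to 1.19 (Zfp809 with 4OHT + siDnmt1 over siDnmt1).

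Of the HP1 genes, Cbx3 was the most abundant in every library. Its FPKM was 129, 143 and 119 in untreated cells, 118, 115 and 113 on 4OHT day 5, and 213, 199.8 and 181 in long-term KO. Long-term KO was the highest, above all 6 others, and 4OHT day 5 was the lowest, just below untreated without overlap. Cbx3 rose in long-term KO by 0.61 against untreated cells (limma, standard error 0.08, adjusted p = 0.000277, 3 of 3 libraries above) and by 0.78 against 4OHT day 5 (limma, standard error 0.08, adjusted p = 7.21e-05, 3 of 3 above). Untreated and 4OHT day 5, the neighbours in the order, were not called apart.

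The siRNA libraries gave Cbx3 at 138 and 151 FPKM in siCtrl, 116 and 121 in siDnmt1, 109.9 and 94.5 in 4OHT + siCtrl, and 83.5 and 91.7 in 4OHT + siDnmt1. The groups descended in that order without overlap. Cbx3 fell by 0.50 with 4OHT + siCtrl (limma, standard error 0.11, adjusted p = 0.0333) and by 0.44 with 4OHT + siDnmt1 over siDnmt1 (limma, standard error 0.11, adjusted p = 0.0474), in both libraries each. The first was not called without siCtrl replicate 1 (adjusted p = 0.121) or 2 (0.207), and the second not without siDnmt1 replicate 1 (0.193) or 2 (0.249) or 4OHT + siDnmt1 replicate 1 (0.174) or 2 (0.0889). Neither was called with no filter (0.0777 and 0.0938), with a replicate block (0.0596 and 0.0744) or without a variance trend (0.0570 and 0.0733), and the first was not with only the compared groups (0.141). With only the compared groups, siDnmt1 was called −0.28 from siCtrl (adjusted p = 0.0366). In the inhibitor libraries Cbx3 was at 139 and 133 in Ctrl, 75.8 and 61.3 in TSA, 147 and 139 in PD0325901, 137 and 122 in 4OHT day 6, and 141 and 120.3 in 4OHT + PD0325901. TSA was far below, PD0325901 lay just above Ctrl and 4OHT day 6, and the others overlapped. Cbx3 fell by 0.99 with TSA (limma, standard error 0.13, adjusted p = 0.000504, both libraries below), a fold of 0.502.

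Cbx5 was at 60.2, 59.5 and 59.1 FPKM in untreated cells, 51.2, 51.3 and 52.4 on 4OHT day 5, and 52.7, 54.1 and 55.4 in long-term KO. The 3 groups did not overlap, with untreated cells highest and 4OHT day 5 lowest. Against untreated cells Cbx5 fell by 0.21 on 4OHT day 5 (limma, standard error 0.03, adjusted p = 0.00102) and by 0.14 in long-term KO (limma, standard error 0.03, adjusted p = 0.00265), in 3 of 3 libraries each. Long-term KO and 4OHT day 5 were not called apart. They were without long-term KO replicate 1 (0.08, adjusted p = 0.0478) and with no filter (0.07, adjusted p = 0.0392). In the siRNA libraries it was at 38.4 and 37.8 in siCtrl, 33.2 and 33.5 in siDnmt1, 32.9 and 52.6 in 4OHT + siCtrl, and 30.2 and 33.2 in 4OHT + siDnmt1. The 2 libraries of 4OHT + siCtrl spanned siCtrl and siDnmt1, and Cbx5 was not called in that experiment. With only the compared groups, siDnmt1 was called −0.19 from siCtrl (adjusted p = 0.0317). Without 4OHT + siCtrl replicate 1 it was called 0.46 above siCtrl (limma, adjusted p = 0.0186) and −0.73 from 4OHT + siCtrl in 4OHT + siDnmt1 (limma, adjusted p = 0.00708), both resting on replicate 2 alone.

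Across the inhibitor groups Cbx5 read 44.4 and 45.9 FPKM in Ctrl, 14.9 and 12.3 in TSA, 29.6 and 32.6 in PD0325901, 34.9 and 35.4 in 4OHT day 6, and 23.7 and 28.7 in 4OHT + PD0325901. The 5 groups did not overlap, in the order Ctrl, 4OHT day 6, PD0325901, 4OHT + PD0325901 and TSA. Cbx5 fell by 1.73 with TSA (limma, standard error 0.13, adjusted p = 4.14e-05), a fold of 0.302 and the largest called change of a member where no value was listed at 0, and by 0.54 with PD0325901 (limma, standard error 0.13, adjusted p = 0.0343), in both libraries each. The second was not called without Ctrl replicate 1 (adjusted p = 0.150) or 2 (0.186), or without PD0325901 replicate 1 (0.152) or 2 (0.0622). It was also lost with no filter (0.0819), after median-ratio scaling (0.0538) and without a variance trend (0.0575). The −0.36 of 4OHT day 6 and the −0.43 of 4OHT + PD0325901 over 4OHT day 6 were not called (limma, adjusted p = 0.0838 and 0.0987), the first except with only the compared groups (0.0341). Its closest patterns over the 12 group means were Ncoa6 (r = 0.973), Akap9 (r = 0.969) and Anapc1 (r = 0.966), chosen after their values were seen.

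Cbx1 was called in 0 of the 12 comparisons. Its FPKM was 72.1, 64.8 and 57.3 in untreated cells, 52.6, 54.8 and 62.3 on 4OHT day 5, and 62.9, 52.8 and 61.8 in long-term KO. The 3 groups overlapped, with untreated highest and 4OHT day 5 lowest by their means. The siRNA libraries read 60.0 and 68.4 in siCtrl, 48.3 and 43.0 in siDnmt1, 48.8 and 77.6 in 4OHT + siCtrl, and 53.7 and 52.7 in 4OHT + siDnmt1. Here siDnmt1 was the lowest, below all others, and 4OHT + siCtrl spanned the rest. The −0.49 of siDnmt1 was not called (limma, adjusted p = 0.215), and was called without 4OHT + siCtrl replicate 2 (adjusted p = 0.0217) and with only the compared groups (0.0276). Without 4OHT + siCtrl replicate 1, 4OHT + siDnmt1 was called −0.54 from 4OHT + siCtrl (adjusted p = 0.0282). In the inhibitor libraries Cbx1 was at 57.7 and 69.6 in Ctrl, 58.2 and 55.2 in TSA, 62.4 and 62.2 in PD0325901, 56.0 and 71.3 in 4OHT day 6, and 60.4 and 63.8 in 4OHT + PD0325901. All groups overlapped there except that TSA lay below PD0325901 and 4OHT + PD0325901. Its locus overlaps Gm11517 on the other strand by 2825 bases, so reads there can be counted for either gene.

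As Cbx3 and Cbx5 moved and Cbx1 was not called, the shares of the 3 HP1 genes in their summed FPKM differed by group. Cbx3 made up 49.3, 53.5 and 50.5% of the sum in untreated cells, 53.1, 52.1 and 49.6% on 4OHT day 5, and 64.9, 65.1 and 60.7% in long-term KO. The sum itself was 261, 267 and 235 FPKM, 221, 221 and 227, and 329, 307 and 299 in these groups. In TSA the sum was 149 and 129 against 241 and 248 in Ctrl, with Cbx1 at 39.1 and 42.9% and Cbx5 at 9.99 and 9.58%, its lowest share of all libraries. In replicate 2 of 4OHT + siCtrl, Cbx3 made up 42.1%, its lowest share, against 57.3% in replicate 1. The share of Cbx3 ran from 42.1 to 65.1%, that of Cbx1 from 17.2 to 42.9% and that of Cbx5 from 9.58 to 25.1%. FPKM are relative within a library, and the shares were not tested.

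**Figure D4:**
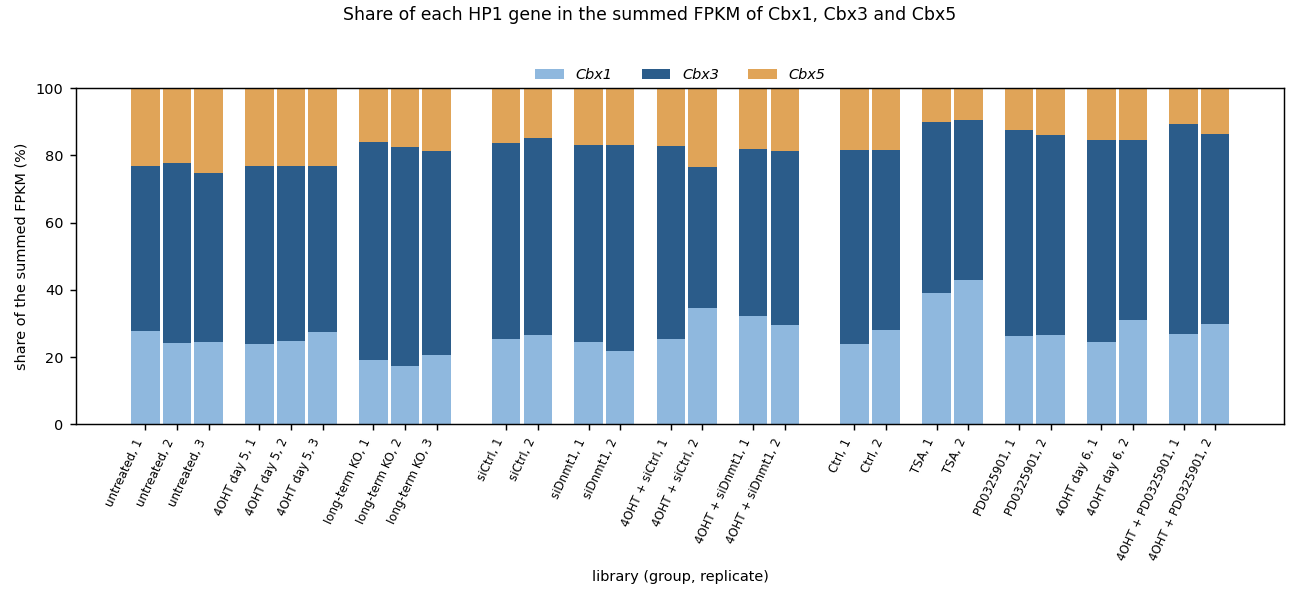
Share of Cbx1, Cbx3 and Cbx5 in their summed FPKM (vertical axis, percent) in each of the 27 libraries (horizontal axis, by group). Each bar is 1 library and its 3 stacked parts add up to the whole; Cbx3 is the largest part in every bar, from 42.1 to 65.1%.

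Mphosph8, the chromodomain reader of the HUSH complex, was at 10.3, 11.4 and 10.1 FPKM in untreated cells, 14.3, 12.6 and 14.6 on 4OHT day 5, and 13.2, 12.4 and 13.9 in long-term KO. Untreated cells were lowest without overlap, and the other two groups overlapped and were not called apart. Mphosph8 rose by 0.38 on 4OHT day 5 (limma, standard error 0.07, adjusted p = 0.00584) and by 0.31 in long-term KO (limma, standard error 0.07, adjusted p = 0.00681), in 3 of 3 libraries each. With the siRNAs it was at 17.7 and 16.3 in siCtrl, 18.0 and 17.7 in siDnmt1, 22.0 and 21.6 in 4OHT + siCtrl, and 19.3 and 20.5 in 4OHT + siDnmt1. Both groups given 4OHT were above both groups without it, 4OHT + siCtrl was the highest, and siCtrl and siDnmt1 lay side by side. The 0.36 of 4OHT + siCtrl was not called (limma, adjusted p = 0.0559), and was called as 0.37 without 4OHT + siCtrl replicate 2 (adjusted p = 0.0438). With all libraries it was called with no filter (0.0414) and with a listed 0 as missing (0.0498).

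With the inhibitors Mphosph8 read 23.7 and 22.6 FPKM in Ctrl, 34.9 and 39.3 in TSA, 19.97 and 20.3 in PD0325901, 20.6 and 21.0 in 4OHT day 6, and 20.2 and 21.2 in 4OHT + PD0325901. TSA was the highest, Ctrl came next above all others, and the remaining 3 groups lay close together. It rose by 0.68 with TSA (limma, standard error 0.10, adjusted p = 0.000716, both libraries above), a fold of 1.60, the only member to do so, and was not called elsewhere in that experiment. Over the 12 group means its pattern ran opposite to that of Trim28 (r = −0.847), a description dominated by TSA. The locus of Mphosph8 overlaps Gm16973 on the other strand by 1155 bases.

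The siRNA target itself was read as a control: Dnmt1 was at 80.5 and 73.4 FPKM in siCtrl, 12.2 and 10.6 in siDnmt1, 78.7 and 78.3 in 4OHT + siCtrl, and 12.2 and 11.4 in 4OHT + siDnmt1. Both siDnmt1 groups were low without overlap. Dnmt1 fell by 2.75 with siDnmt1 (limma, standard error 0.11, adjusted p = 0.000160) and by 2.72 with 4OHT + siDnmt1 over 4OHT + siCtrl (limma, standard error 0.11, adjusted p = 0.000155), in both libraries each. In the same comparisons 1 and 0 of 8 members were called, beside 8.08% and 2.05% of all genes.

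Beside the members, 6 lists of partner and related genes, 59 in all, were read: Setdb1 and HUSH partners (8 genes), the Trim28 family and its partners (13), the SUMO pathway (10), chromatin assembly with HP1 (11), KRAB zinc-finger genes of retroelements (12) and the Polycomb chromobox genes (5). Sumo2, Adnp, Zfp708 and Cbx6 had no value, and 43, 47 and 50 genes were tested in the total RNA, siRNA and inhibitor experiments. Calls numbered 14 at 4OHT day 5 (10 higher, 4 lower), 32.6% of those tested beside 35.5% of all genes. For long-term KO they were 24 against untreated cells (18 and 6), 55.8% beside 65.9%, and 23 against 4OHT day 5 (10 and 13), 53.5% beside 64.4%, so all 3 shares were below those of all genes. In the siRNA experiment limma called 0 for siDnmt1, beside 8.08% of all genes and 2751 at an unadjusted p under 0.05. It called 8 for 4OHT + siCtrl (8 and 0; 17.02% beside 13.8%), 1 for 4OHT + siDnmt1 over 4OHT + siCtrl (lower; 2.13% beside 2.05%) and 9 over siDnmt1 (8 and 1; 19.1% beside 13.9%). In the inhibitor experiment the counts were 13 for 4OHT day 6 (7 and 6; 26% beside 25%), 6 for PD0325901 (1 and 5; 12% beside 13.7%) and 23 for TSA (7 and 16; 46% beside 55.9%). For 4OHT + PD0325901 they were 1 over 4OHT day 6 (lower; 2% beside 6.94%) and 7 over PD0325901 (6 and 1; 14% beside 8.16%). The interaction with siDnmt1 was called in 1 gene and that with PD0325901 in 0. The gene called lower for 4OHT + siDnmt1 in both comparisons and in the interaction was Cbx7, listed at 0 there.

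Among the Setdb1 and HUSH partners, 7 of 8 were tested in each experiment and the calls on 4OHT day 5 and day 6 were all higher. At 4OHT day 5, 5 of 7 were higher and 0 lower (71.4% called beside 35.5% of all genes), with a median log2 fold change of 0.76 beside 0.00 over all genes. The count was 4 higher for 4OHT + siCtrl (57.1% beside 13.8%, median 0.64 beside 0.08) and 4 higher for 4OHT + siDnmt1 over siDnmt1 (57.1% beside 13.9%, median 0.74 beside 0.14). It was 3 higher for 4OHT day 6 (42.9% beside 25%, median 0.48 beside 0.00) and 2 higher for 4OHT + PD0325901 over PD0325901 (28.6% beside 8.16%, median 0.34 beside 0.09). In long-term KO, 4 were higher and 1 lower against untreated cells (71.4% beside 65.9%, median 0.35 beside 0.07), and 5 were lower against 4OHT day 5 (71.4% beside 64.4%, median −0.35 beside 0.04). With TSA 1 was higher and 2 lower, 42.9% beside 55.9% (median 0.08 beside 0.10). For siDnmt1, PD0325901, 4OHT + siDnmt1 over 4OHT + siCtrl, 4OHT + PD0325901 over 4OHT day 6 and both interactions limma called 0, where 2751, 3291, 2071, 2555, 1061 and 1798 of all genes were at an unadjusted p under 0.05.

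Resf1, which regulates Setdb1 in embryonic stem cells, had the highest log2 fold change of its list after 4OHT. Its FPKM was 22.1, 22.6 and 21.7 in untreated cells, 124, 113 and 133 on 4OHT day 5, and 57.3, 57.7 and 57.7 in long-term KO; 18.2 and 16.9 in siCtrl, 17.2 and 16.4 in siDnmt1, 76.1 and 65.9 in 4OHT + siCtrl, and 66.0 and 61.2 in 4OHT + siDnmt1. In the inhibitor libraries it was 21.5 and 20.1 in Ctrl, 3.45 and 3.41 in TSA, 10.1 and 16.3 in PD0325901, 43.8 and 64.3 in 4OHT day 6, and 32.1 and 58.3 in 4OHT + PD0325901. Every group given 4OHT was above every group without it in its experiment, with long-term KO between, and TSA was lowest. Resf1 rose by 2.47 on 4OHT day 5 (limma, standard error 0.06, adjusted p = 1.22e-07), by 2.01 with 4OHT + siCtrl (limma, adjusted p = 0.000612), by 1.91 with 4OHT + siDnmt1 over siDnmt1 (adjusted p = 0.000705), by 1.35 on 4OHT day 6 (adjusted p = 0.0230) and by 1.74 with 4OHT + PD0325901 over PD0325901 (adjusted p = 0.0205), in all libraries of each group. It fell by 2.57 with TSA (limma, adjusted p = 0.000423) and by 1.09 from 4OHT day 5 to long-term KO (adjusted p = 2.06e-06). At the other end of the called partners were Morc3 on 4OHT day 5 (0.30), Pphln1 in long-term KO over untreated cells (−0.34), Smarcad1 with 4OHT + siCtrl (0.62), Morc2a with 4OHT + siDnmt1 over siDnmt1 (0.69) and Atf7ip with 4OHT + PD0325901 over PD0325901 (1.63).

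**Figure D5:**
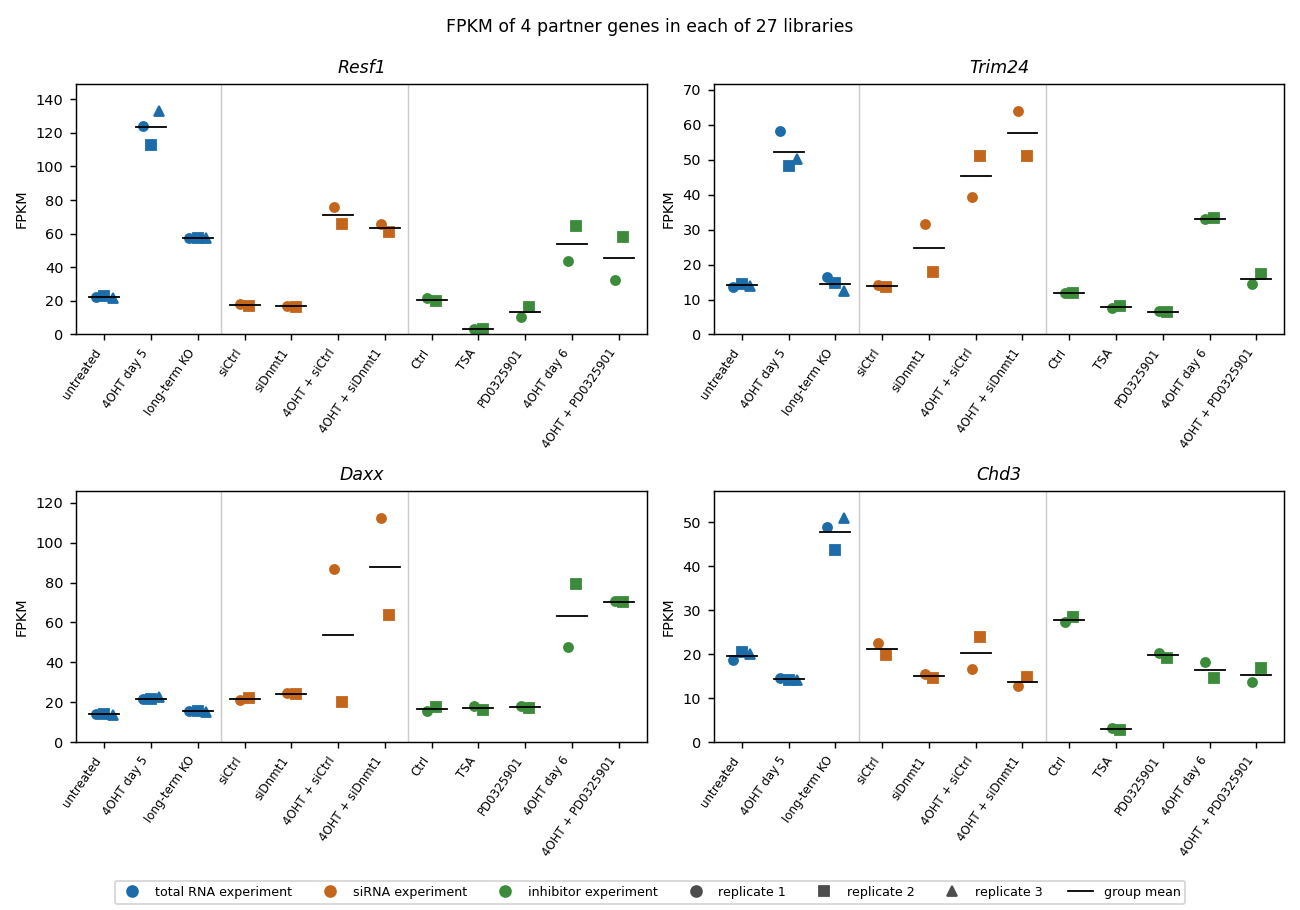
FPKM (vertical axis) of Resf1, Trim24, Daxx and Chd3 in each of the 27 libraries by group (horizontal axis). Points are libraries and bars are group means; Resf1 runs from 3.41 FPKM in TSA to 133 on 4OHT day 5.

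In the list of the Trim28 family and its partners, 10, 11 and 12 of 13 genes were tested. Counts called higher and lower were 1 and 1 at 4OHT day 5 (20% called beside 35.5% of all genes, median −0.06 beside 0.00), 5 and 0 in long-term KO over untreated cells (50% beside 65.9%, 0.08 beside 0.07) and 4 and 1 over 4OHT day 5 (50% beside 64.4%, 0.12 beside 0.04). They were 1 and 0 for 4OHT + siCtrl (9.09% beside 13.8%) and for 4OHT + siDnmt1 over siDnmt1 (9.09% beside 13.9%). The inhibitor experiment had 2 and 1 for 4OHT day 6 (25% beside 25%, 0.02 beside 0.00), 1 and 1 for PD0325901 (16.7% beside 13.7%, −0.19 beside −0.07) and 2 and 4 for TSA (50% beside 55.9%, −0.19 beside 0.10). It had 0 and 1 for 4OHT + PD0325901 over 4OHT day 6 (8.33% beside 6.94%) and 2 and 1 over PD0325901 (25% beside 8.16%). For siDnmt1 and for 4OHT + siDnmt1 over 4OHT + siCtrl limma called 0, where 2751 and 2071 of all genes were at an unadjusted p under 0.05.

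Trim24, a TRIM family gene related to Trim28, was at 13.7, 14.5 and 13.9 FPKM in untreated cells, 58.3, 48.3 and 50.2 on 4OHT day 5, and 16.3, 14.7 and 12.6 in long-term KO. In the other experiments it was at 14.2 and 13.5 in siCtrl, 31.5 and 18.0 in siDnmt1, 39.4 and 51.004 in 4OHT + siCtrl, 64.1 and 50.9 in 4OHT + siDnmt1, 11.8 and 11.8 in Ctrl, 7.52 and 8.28 in TSA, 6.69 and 6.45 in PD0325901, 33.0 and 33.3 in 4OHT day 6, and 14.3 and 17.3 in 4OHT + PD0325901. It was high after 4OHT and back among the untreated values in long-term KO. Trim24 rose by 1.89 on 4OHT day 5 (limma, adjusted p = 1.19e-05), by 1.68 with 4OHT + siCtrl (adjusted p = 0.0167) and by 1.48 on 4OHT day 6 (adjusted p = 0.000526), and fell by 0.83 with PD0325901 (adjusted p = 0.00652) and by 1.07 with 4OHT + PD0325901 over 4OHT day 6 (adjusted p = 0.00426), in all libraries of each group. Its interaction of 4OHT and PD0325901 was not called. Trim24 also served above to place PD0325901 replicate 2, so its differences that use the PD0325901 group are not independent of that choice.

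Chd3, a remodeller that binds Trim28, was at 18.6, 20.4 and 19.96 FPKM in untreated cells, 14.7, 14.1 and 14.1 on 4OHT day 5, and 49.0, 43.7 and 50.96 in long-term KO. In the siRNA experiment it was at 22.6 and 19.7 in siCtrl, 15.5 and 14.6 in siDnmt1, 16.7 and 23.9 in 4OHT + siCtrl, and 12.7 and 14.7 in 4OHT + siDnmt1, and in the inhibitor experiment at 27.2 and 28.5 in Ctrl, 3.29 and 2.74 in TSA, 20.3 and 19.1 in PD0325901, 18.2 and 14.6 in 4OHT day 6, and 13.6 and 16.8 in 4OHT + PD0325901. The 3 total RNA groups did not overlap, and TSA was far below the rest. Chd3 fell on 4OHT day 5 (−0.46; limma, adjusted p = 0.00113), on 4OHT day 6 (−0.77; adjusted p = 0.0146) and with TSA (−3.17; adjusted p = 1.07e-05), in all libraries of each group. It rose by 1.28 in long-term KO over untreated cells (limma, adjusted p = 1.35e-06, 3 of 3 libraries above). Among the other extremes called in this list were Hdac1 with TSA (0.69) and Hdac2 with PD0325901 (0.39).

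For chromatin assembly with HP1, 10 of 11 genes were tested. Called higher and lower were 3 and 1 at 4OHT day 5 (40% beside 35.5% of all genes, median 0.09 beside 0.00), 5 and 1 in long-term KO over untreated cells (60% beside 65.9%, 0.15 beside 0.07) and 3 and 3 over 4OHT day 5 (60% beside 64.4%). In the siRNA experiment 1 was called, higher, for 4OHT + siDnmt1 over siDnmt1 (10% beside 13.9%). The inhibitor libraries gave 1 and 2 for 4OHT day 6 (30% beside 25%), 0 and 2 for PD0325901 (20% beside 13.7%, −0.44 beside −0.07), 2 and 4 for TSA (60% beside 55.9%, −0.33 beside 0.10) and 1 and 0 for 4OHT + PD0325901 over PD0325901 (10% beside 8.16%). Limma called 0 in the other 4 comparisons, where 2071 to 3461 of all genes were at an unadjusted p under 0.05.

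Daxx was at 14.2, 13.98 and 13.6 FPKM in untreated cells, 21.4, 21.4 and 22.5 on 4OHT day 5, and 15.7, 15.8 and 14.9 in long-term KO; 20.9 and 21.9 in siCtrl, 24.7 and 23.8 in siDnmt1, 87.0 and 20.03 in 4OHT + siCtrl, and 112 and 63.5 in 4OHT + siDnmt1. In the inhibitor libraries it read 15.6 and 17.3 in Ctrl, 18.2 and 16.1 in TSA, 18.3 and 16.9 in PD0325901, 47.5 and 79.2 in 4OHT day 6, and 70.8 and 70.2 in 4OHT + PD0325901. The libraries of 4OHT day 5 and day 6 were the highest except replicate 2 of 4OHT + siCtrl, at 20.03 the lowest of its experiment. Daxx rose by 0.64 on 4OHT day 5 (limma, adjusted p = 1.46e-05), by 1.89 on 4OHT day 6 (limma, adjusted p = 0.00160) and by 2.00 with 4OHT + PD0325901 over PD0325901 (limma, adjusted p = 0.00261), in all libraries of each group. Atrx had the lowest value of the list with TSA (−1.11) and Chaf1a in long-term KO (−0.43) and PD0325901 (−0.55), and Hp1bp3 the highest in long-term KO (0.79).

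The SUMO pathway had 8 of 10 genes tested. Called higher and lower were 1 and 1 on day 5 of 4OHT (25% beside 35.5% of all genes), 2 and 3 in long-term KO over untreated cells (62.5% beside 65.9%), 1 and 3 over 4OHT day 5 (50% beside 64.4%) and 0 and 4 with TSA (50% beside 55.9%, median −0.33 beside 0.10). Limma called 0 in the other 8 comparisons, where 2071 to 4294 of all genes were at an unadjusted p under 0.05. Senp7 was the highest in long-term KO (0.73) and the lowest with TSA (−1.10).

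Of the KRAB zinc-finger genes 5, 7 and 9 of 12 were tested. Those called higher and lower were 0 and 1 in long-term KO against either group (20% beside 65.9% and 64.4% of all genes), 2 and 0 for 4OHT + siCtrl (28.6% beside 13.8%, median 0.54 beside 0.08) and 2 and 0 for 4OHT + siDnmt1 over siDnmt1 (28.6% beside 13.9%, 0.70 beside 0.14). They were 1 and 2 for 4OHT day 6 (33.3% beside 25%), 0 and 2 for PD0325901 (22.2% beside 13.7%) and 0 and 2 for TSA (22.2% beside 55.9%). Limma called 0 of them in the other 5 comparisons, where 2071 to 4118 of all genes were at an unadjusted p under 0.05. Zfp932 and Zfp445 were the 2 that rose with 4OHT + siCtrl (0.70 and 0.54) and with 4OHT + siDnmt1 over siDnmt1 (0.77 and 0.70), beside the rise of Zfp809 there. The lowest were Zfp57 with TSA (−1.06) and with PD0325901 (−0.88) and Zfp961 on 4OHT day 6 (−0.77).

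Of the Polycomb chromobox genes 3, 4 and 4 of 5 were tested. Cbx2 was called lower on 4OHT day 5 (−0.37), 33.3% of those tested beside 35.5% of all genes. Cbx2 and Cbx8 were called higher in each comparison of long-term KO (66.7% beside 65.9% and 64.4%), with Cbx8 at 0.57 over untreated cells. Cbx2 and Cbx7 were called higher with TSA (0.82 and 2.11; 50% beside 55.9%, median 0.73 beside 0.10). Cbx7 was at 0.862 and 0.774 FPKM in siCtrl, 0.956 and 1.116 in siDnmt1, 1.98 and 4.20 in 4OHT + siCtrl, and listed at 0 in both libraries of 4OHT + siDnmt1. The 4OHT + siCtrl libraries were the highest, and Cbx7 rose there by 1.71 (limma, adjusted p = 0.0448, both libraries above). A listed 0 can be a failed estimate, so no fold change is given for 4OHT + siDnmt1, and the calls that limma gave with it rest on those zeros. Cbx7 was also called higher with 4OHT + PD0325901 over PD0325901 (2.297). For siDnmt1, PD0325901 and 4OHT + PD0325901 over 4OHT day 6 limma called 0 of this list, where 2751, 3291 and 2555 of all genes were at an unadjusted p under 0.05.

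Among all 8549 genes, those closest to Setdb1 over the 12 group means were Tatdn3 (r = 0.926), Epb41 (r = 0.926) and Tatdn1 (r = 0.923), chosen after their values were seen. Epb41 was listed at 0 in no library and read 15.8 and 15.8 FPKM in Ctrl, 20.2 and 19.3 in TSA, 16.6 and 13.3 in PD0325901, 11.4 and 10.8 in 4OHT day 6, and 10.03 and 9.08 in 4OHT + PD0325901. Tatdn3 was listed at 0 in 1 library, replicate 2 of 4OHT + PD0325901. Tatdn1 was listed at 0 in the same 3 inhibitor libraries as Setdb1 and also in replicate 1 of 4OHT + siDnmt1, where Setdb1 read 5.40. The zeros of Setdb1 enter its group means, and how close these genes are without them was not tested.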

How the data were processed

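Gene expression was read from 27 deposited Cufflinks tables, 1 per library, of bulk RNA-seq of iMEFs with a conditional *Setdb1* knockout in the total RNA, siRNA and inhibitor experiments. Alignment to mm9 by the authors used TopHat2 2.0.12, followed by Cufflinks (no version in the labels) for each library, and the deposited values are FPKM (fragments per kilobase of transcript, relative to the mapped fragments of the library), with a 95% confidence interval. The 2 deposited Cuffdiff tables hold the authors' own group comparisons and were not used.

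The total RNA tables have no gene names. Their loci were named by position from the other tables when they covered 95% of a gene, and the same step gave 99.99% to 100% identical names where names exist (checked). Loci without an OK status, Mir and Snor genes and loci that join several genes were left out. Depth, estimated from the intervals as (2 × FPKM / (upper end − FPKM)) squared, was 31.4 to 42.5 M fragments per total RNA library, 13.9 to 15.9 per siRNA library and 11.0 to 13.0 per inhibitor library. The same formula per gene gives the fragments that an interval is worth, which can be fewer than the reads counted where Cufflinks is unsure of the value. It had a median of 424 for Setdb1 (lowest 122), 2757 for Trim28 (638), 268 for Zfp809 (7.41), 746 for Cbx1 (421), 1934 for Cbx3 (1220.05), 1823 for Cbx5 (1013), 698 for Mphosph8 (448) and 1256 for Cers2 (409.8). Setdb1 was listed at 0 in 3 libraries, and the interval of Trim28, from 0 to 11583 FPKM or more, gave no such figure in 3.

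Libraries were grouped by their labels. Each experiment was fitted with all its groups by limma 3.58.1 (lmFit, eBayes with trend) in R 4.3.3 on log2(FPKM + 0.1). Genes entered the test at 1 FPKM or more in a number of libraries equal to the size of the smallest group. Tests were two-sided, with Benjamini-Hochberg adjustment over all genes tested, and a gene was called at an adjusted p under 0.05. In this way 12 comparisons and 2 interactions were tested, and the fit was tested on simulated data. Other steps ran in Python 3.11.15 (matplotlib 3.10.9, numpy 2.4.6, scipy 1.17.1, pandas 2.3.3).

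The members and the 6 lists were chosen with earlier results of these data known. Named are all 8 members, the called list genes with the highest and lowest log2 fold change of each comparison, and Dnmt1 as the siRNA target. Genes around Setdb1 are all within 100 kb. Any other gene is marked as chosen after its values were seen, and 1 list gene that meets this rule is left out of the named ones. Alternatives were other pseudocounts (1, 0.01), no filter or 5 FPKM, median-ratio and quantile scaling, only the compared groups, a replicate block and no variance trend. Others were a fold of 2, a listed 0 as missing, Setdb1 and Cers2 summed, and each library of the compared groups left out. After group means were removed, r between libraries with the same replicate number ran from −0.0995 to 0.0905 in the total RNA, −0.0946 to 0.122 in the siRNA and 0.0199 to 0.552 (median 0.0502) in the inhibitor experiment, where all were positive. The labels name no pairs, so pairing is an alternative only.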

Additional observations from a re-analysis of the deposited data

Results flagged for a closer look

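Cbx7, in the list of Polycomb chromobox genes, came out with an interaction of 4OHT and siDnmt1 of −5.21 in log2 (limma, adjusted p = 0.0436), picked out because the effect of 4OHT differed between siCtrl and siDnmt1. The size and the call rest on listed zeros: both libraries of 4OHT + siDnmt1 list Cbx7 at 0, which can be a failed estimate, and the added 0.1 FPKM sets the value there. The other 6 libraries read 0.774 to 4.20 FPKM. The value is therefore not given as a change in the report, and the cause of the zeros was not tested.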

How the results depend on the processing

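Alternatives were chosen in part after the data had been seen. Of 1118 log2 fold changes of single members under another setting, 1043 kept their direction and call, 21 lost a call, 27 gained it, 3 turned with a call in either fit and 24 turned with none. With 1 library left out, 473 of 576 kept both, 35 lost a call, 18 gained it, 1 turned with a call and 49 with none. Of the counts of members called, 110 of 152 stayed the same number under another setting and 42 of 72 with a library left out. Another 13 and 3 differed by 1 member, and were within 1.5 times the count reported. The cause was not tested except where the construction shows it.

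With a call in either fit, direction turned in 4 cases. Summed with Cers2, Setdb1 read −0.014 between long-term KO and 4OHT day 5, 0.38 for 4OHT + siCtrl and 0.42 for 4OHT day 6 over Ctrl, since Cers2 has the higher FPKM and makes up most of the sum. Trim28 read 0.25 for 4OHT + siCtrl over siCtrl without replicate 2 of 4OHT + siCtrl, and −0.34 without replicate 1. The turns without a call under a setting came from median-ratio scaling (8), quantile normalization (10) and the sum with Cers2, which gave Setdb1 0.07 at 4OHT day 5 (−0.19 alone), 0.31 for siDnmt1 (−0.25) and 0.10 for PD0325901 (−0.78). For 4OHT + siCtrl, Cbx5 read −0.21 (0.13 with all) and Setdb1 0.13 (−0.17) without replicate 2, and Cbx1 0.28 (−0.06) without replicate 1, none called.

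A fold of 2 for a call left 0 members at 4OHT day 5, beside 296 of the 9214 genes tested. It left 0 in long-term KO over untreated cells (1278 genes) and over 4OHT day 5 (1153). For siDnmt1 it left 0, beside 511 of 10573 genes. For 4OHT day 6 and PD0325901 it left 0, beside 1253 and 820 of 11309. It left 1 for 4OHT + siCtrl (639 genes) and for 4OHT + siDnmt1 over siDnmt1 (602), and 3 for TSA (3628). For long-term KO over 4OHT day 5, median-ratio scaling, quantile normalization and only the compared groups each gave 4. Median-ratio scaling and quantile normalization called 6000 and 6001 of all genes there. For siDnmt1, the 5 FPKM filter and no variance trend gave 0 and only the compared groups gave 4, which for 4OHT + siCtrl gave 0. For 4OHT + siDnmt1 over siDnmt1, no filter and no variance trend gave 1 and only the compared groups 4. For PD0325901, no filter, median-ratio scaling and no variance trend gave 0, and a listed 0 taken as missing gave 2. With a listed 0 as missing, 1 member (Setdb1, at 0 in both libraries) was called for 4OHT + PD0325901 over 4OHT day 6 and over PD0325901 and for the interaction of 4OHT and PD0325901. Only the compared groups also gave 1 over PD0325901. Outside the fold and the scalings, the share of all genes called is not given here, so these counts do not describe the members alone.

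With a replicate block (paired by replicate number) the count was 0 for siDnmt1 and 1 for 4OHT + siDnmt1 over siDnmt1. Zfp809 at 4OHT day 5 (limma, adjusted p = 0.0973) and Cbx3 for 4OHT + siCtrl (0.0596) were not called. The share of all genes called with the block is not given here.

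The libraries left out, 1 at a time, were those of the groups compared. Only 4OHT + siCtrl replicate 2 was also left out of the siRNA comparisons that do not use it. The members called were then 2–3 at 4OHT day 5, 3–3 in long-term KO over untreated cells and 1–3 over 4OHT day 5. The siRNA comparisons had 0–2 for siDnmt1, 0–5 for 4OHT + siCtrl, 0–3 for 4OHT + siDnmt1 over 4OHT + siCtrl and 0–4 over siDnmt1. They were 0–2 for 4OHT day 6, 0–0 for PD0325901, 5–5 for TSA, 0–1 for 4OHT + PD0325901 over 4OHT day 6, 0–0 over PD0325901, and 0–1 for each interaction. Where a group of 2 loses a library, the lone sample is assumed to vary like those of the other groups. Except without 4OHT + siCtrl replicate 2, the share of all genes called in these fits is not given here. The deposited intervals of Trim28 ran from 0 to 11583 FPKM or more in 3 siRNA libraries, 4OHT + siCtrl replicate 2 among them, and that of Zfp809 was as wide as 7.41 fragments would give in 1 TSA library, while other libraries of much the same depth had narrower ones.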
